A study of Mus musculus with 6 samples.

Results

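The 10 genes described here are Prap1, Olfm1, Rnase1, Rnase4, Pinlyp, Ttpa, Msln, Spink1, Gabrp and Mmp7, taken by symbol from a table of 24964 genes. They were picked because their RNA was far lower in uterine luminal epithelium without Foxo1, so that difference is given below as a description, and no test of it is reported. By textbook knowledge 7 of them encode secreted proteins, Msln and Gabrp encode 2 surface proteins, and Ttpa encodes a cytosolic protein, for which the description as secreted or surface does not hold.

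Gene expression was measured by RNA-seq in 6 samples of mouse luminal epithelium cut out by laser capture from uteri at pregnancy day 4. The Foxo1dd group (n = 3, genotype Pgrcre/+Foxo1f/f) carried floxed Foxo1 alleles and 1 copy of Cre at the progesterone receptor gene Pgr, and the Foxo1ff group (n = 3, genotype Foxo1f/f) carried the same floxed alleles without Cre. All females were housed with littermates on normal chow up to 8 weeks of age and then mated. Cre at Pgr is known to act in any cell that expresses the progesterone receptor, in uterine stroma and ovary as well as in epithelium, and the Foxo1ff samples control neither for Cre nor for the altered Pgr allele. The samples of a group are called bioreplicates and nothing more is said of the animals, so any p-value measures the spread between these samples.

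The luminal epithelium is the single cell layer that an embryo meets first, and around implantation it both secretes into the uterine lumen and remodels its apical surface. FOXO1 is a forkhead transcription factor held in the cytoplasm by insulin and growth factor signalling, and in the mouse it enters epithelial nuclei as the uterus becomes receptive. The genes described here span several kinds of product of such a layer, namely lumenal proteins with no known enzyme activity, ribonucleases, a metalloproteinase, inhibitors, a surface glycoprotein, an ion channel subunit and a lipid transfer protein.

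Values are FPKM, a level scaled to gene length and library size, so levels of different genes can be set side by side. Foxo1 itself had 1.72, 0.942 and 1.22 FPKM in Foxo1dd samples, against 160.0, 118.5 and 110.8 FPKM in Foxo1ff samples. Pgr, whose locus holds the Cre insertion, had 28.3 to 36.2 FPKM in Foxo1dd and 1.64 to 2.44 FPKM in Foxo1ff samples. Summed FPKM per sample was 552190 to 564628 in Foxo1dd and 613186 to 667499 in Foxo1ff samples. The sample Foxo1dd 2 listed 13995 genes above 0, fewer than the 15474 to 16062 of the others, and values without it are given where it matters. The 16 luminal epithelial markers summed to 5216 to 6470 FPKM in Foxo1dd and 3334 to 4481 FPKM in Foxo1ff samples. Without Calb1 the sums were 4887 to 5831 FPKM in Foxo1dd and 3327 to 4478 FPKM in Foxo1ff samples. Among all tested genes, 22.2% were called higher and 34.2% lower in Foxo1dd, the background for the counts of markers here. The luminal epithelial markers did not move alike, with 7 of 16 called higher and 3 (Epcam, Cdh1 and Klf5) lower. Sums of several other cell types' markers rested largely on single genes. The 15 leukocyte markers summed to 75.2 to 87.0 FPKM in Foxo1dd and 35.7 to 39.6 FPKM in Foxo1ff samples, but to 11.9 to 22.0 and 31.1 to 36.0 FPKM without Laptm5, and of 8 tested, 2 were called higher and 6 (Ptprc, Csf1r, C1qa, C1qb, Tyrobp and Fcer1g) lower. The 11 endothelial markers summed to 29.3 to 47.8 FPKM in Foxo1dd and 8.22 to 10.4 FPKM in Foxo1ff samples, but without Sox7 to 4.13 to 6.24 and 5.50 to 6.68 FPKM, which overlap, and Egfl7 was called lower. The 8 smooth muscle markers summed to 7.61 to 11.8 FPKM in Foxo1dd and 3.14 to 5.91 FPKM in Foxo1ff samples, and to 3.80 to 4.76 and 2.99 to 5.33 FPKM without Synpo2. The 14 stroma markers summed to overlapping ranges, 44.3 to 65.9 FPKM in Foxo1dd and 41.6 to 47.4 FPKM in Foxo1ff samples. Without Nr2f2 the other 13 summed to 19.3 to 35.5 and 19.7 to 26.2 FPKM, which also overlap. Of 12 tested, 3 were called higher and 0 lower. The 6 trophoblast markers summed to 667.2 to 739.3 FPKM in Foxo1dd and 250.9 to 338.8 FPKM in Foxo1ff samples, mostly Krt8, a keratin that uterine epithelium also makes. Without Krt8 they summed to 16.0 to 40.9 FPKM in Foxo1dd and 0.262 to 0.743 FPKM in Foxo1ff samples. Most of that Foxo1dd sum was Elf5, with a mean of 27.8 FPKM in Foxo1dd and 0.162 FPKM in Foxo1ff, and Cdx2 was at 0 in every sample. The 5 erythroid markers summed to at most 0.697 FPKM. These lists moved in different directions, and the part of other cells in the differences was not tested.

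RefSeq start windows, 250 bases before to 50 bases after a start on GRCm38.p6 (the assembly that mm10 names), were found for 7 of the 10 genes, 10 windows in all. No window was found by symbol for Ttpa, Msln or Spink1. The stretches below are the 150 bases before the start of the gene with the largest fall, of both ribonuclease genes, of Mmp7 and of Plaur, a relative and chromosomal neighbour of Pinlyp. They are followed by 30 bases within the Pinlyp window. Capitals mark, on either strand, the TATA box letters TATAAA, the AP-1 motif written as TGANTCA, and the core letters that forkhead factors share, TAAACA.
Prap1, chr7:140093246-140093395, plus strand: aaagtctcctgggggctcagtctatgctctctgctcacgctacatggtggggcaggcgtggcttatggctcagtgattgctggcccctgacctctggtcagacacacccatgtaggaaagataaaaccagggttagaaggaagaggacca
Rnase1, chr14:51146768-51146917, minus strand: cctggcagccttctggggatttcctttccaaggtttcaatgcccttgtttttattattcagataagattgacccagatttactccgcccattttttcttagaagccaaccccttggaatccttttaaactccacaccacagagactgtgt
Rnase4 and Ang, chr14:51090927-51091076, plus strand: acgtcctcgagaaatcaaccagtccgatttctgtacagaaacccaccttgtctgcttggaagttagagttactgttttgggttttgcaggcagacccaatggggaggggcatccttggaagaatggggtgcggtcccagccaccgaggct
Mmp7, chr9:7691940-7692089, plus strand: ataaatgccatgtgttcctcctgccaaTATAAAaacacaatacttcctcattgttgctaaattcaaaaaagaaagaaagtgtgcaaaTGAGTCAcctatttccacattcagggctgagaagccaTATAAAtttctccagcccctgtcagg
Plaur, chr7:24462333-24462482, plus strand: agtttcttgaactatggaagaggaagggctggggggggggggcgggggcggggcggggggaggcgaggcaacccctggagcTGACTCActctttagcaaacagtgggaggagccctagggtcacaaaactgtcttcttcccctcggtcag
Pinlyp, chr7:24545969-24545998, minus strand: acaccatgattcTGTTTAgaagacacagga

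The FOXO letters GTAAACA were in 0 of the 10 windows and in 3.65% of all 32851 RefSeq windows of this length, both strands searched. The insulin response letters CAAAACAA were likewise in 0 of 10, against 2.51% of all windows. The palindromic response elements of the progesterone receptor (its 2 arms written as GNACA with TGTNC, spaced by 3 bases) and of the estrogen receptor (GGTCA with TGACC, same spacing) were in 0 of 10, against 0.475% and 0.07% of all windows. The shorter letters TAAACA, which every GTAAACA contains, were found once, after the start of Pinlyp, against 13.4% of all windows. Mmp7 was the gene with the AP-1 letters (7.81% of all windows) and with TATAAA (13.6%, here at 2 places). These last 3 motifs were searched after the sequences had been read, and a match is a description of letters, not a site of binding.

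Prap1 encodes a secreted proline-rich acidic protein known from the pregnant mouse uterus and from the gut. It had 35.5, 3.13 and 34.6 FPKM in Foxo1dd samples, against 6770, 11893 and 11559 FPKM in Foxo1ff samples. The groups were far apart, the lowest Foxo1ff value being 191-fold above the highest Foxo1dd value. Prap1 was the 4th most abundant RNA of the table in Foxo1ff by group mean and stood at rank 3735 in Foxo1dd. Among the 10 genes it had the widest spread within Foxo1dd in which no value was 0, because Foxo1dd 2 was 11.3-fold below Foxo1dd 1. The ratio of group means, 413-fold lower in Foxo1dd, became 287-fold without Foxo1dd 2 and reached 533-fold without Foxo1dd 1. The gene (chromosome 7, 140093395 to 140097200, plus strand) shares 169 exon bases with Fuom on the opposite strand, and reads there cannot be assigned without strand.

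Olfm1, an olfactomedin-domain glycoprotein best known from the brain, was the next most abundant. Its FPKM was 16.4, 28.8 and 9.29 in Foxo1dd samples, against 2583, 1864 and 1685 in Foxo1ff samples. All Foxo1ff values exceeded all Foxo1dd values, at least 58.5-fold, and the group means differed 113-fold. Its rank was 4642 in Foxo1dd and 29 in Foxo1ff. In Foxo1ff it alone of the 10 genes was highest in Foxo1ff 1, the sample in which 8 of the 10 were lowest. The gene lies on chromosome 2 (28192992 to 28230736, plus strand).

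The pair of ribonuclease genes lie 38.8 kb apart on chromosome 14. Rnase1 (51144998 to 51146785, minus strand), the pancreatic-type ribonuclease that cleaves single-stranded and double-stranded RNA outside cells, had 0.908, 1.90 and 0.218 FPKM in Foxo1dd samples, against 287.6, 439.7 and 327.3 FPKM in Foxo1ff samples. Rnase4 (51091077 to 51106151, plus strand), a secreted ribonuclease that prefers uridine, had 1.91, 0.941 and 1.51 FPKM in Foxo1dd samples, against 134.7, 398.9 and 203.5 FPKM in Foxo1ff samples. Both were highest in Foxo1ff 2 and lowest in Foxo1ff 1, and no Foxo1dd value came near the Foxo1ff range. Group means were 349-fold lower for Rnase1 and 169-fold lower for Rnase4 in Foxo1dd. Without Foxo1dd 2 the Rnase1 difference was 624-fold, so that sample moves it more than 1.5 times.

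Ang, angiogenin, another secreted ribonuclease of the family, has the same RefSeq start window as Rnase4, shown above. It had 0.041, 0.085 and 0 FPKM in Foxo1dd samples, against 11.2, 38.3 and 19.1 FPKM in Foxo1ff samples, and fell by 4.35 ± 0.36 on the log2(FPKM + 1) scale (SE, n = 3 each, limma adjusted p = 1.23e-05). In Foxo1ff the level of Rnase4 was 10.4 to 12 times that of Ang in the 3 samples, over which Rnase4 itself varied 2.96-fold. The genes share 219 exon bases on the same strand, so their values are uncertain and not independent. Of the other 15 ribonuclease A family genes listed, 0 reached the minimum of a mean of 1 FPKM used for testing, and 11 were at 0 in every sample. The highest single value was of Ang4, which had 0.895, 3.04 and 0.643 FPKM in Foxo1dd samples and was listed at 0 in all Foxo1ff samples. Rnh1, the cytosolic inhibitor of these enzymes, had a mean of 153.5 FPKM in Foxo1dd and 134.8 FPKM in Foxo1ff and was not called (adjusted p = 0.219), though it was called higher after rescaling to the same summed FPKM or by quantiles.

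Mmp7, matrilysin, is a small metalloproteinase that epithelial cells secrete, known for cleaving matrix proteins and, in the mouse gut, for activating defensins. It had 2.15, 2.35 and 0.633 FPKM in Foxo1dd samples, against 497.9, 1008 and 1121 FPKM in Foxo1ff samples. The lowest Foxo1ff value was 212-fold above the highest Foxo1dd value. Its group mean was 512-fold lower in Foxo1dd, between 389-fold and 629-fold when any sample was left out. The gene (chromosome 9, 7692090 to 7699585, plus strand) shares 123 exon bases with AV064505 on the opposite strand and lies 1200 kb from Pgr, on the chromosome that differs between the genotypes by the Cre insertion.

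Spink1, a Kazal-type trypsin inhibitor on chromosome 18 that mouse work also calls Spink3, is known from the pancreas and from uterine glands. It had 0.307, 0.064 and 0 FPKM in Foxo1dd samples, against 44.2, 57.2 and 178.4 FPKM in Foxo1ff samples. Foxo1ff 3 stood apart at 4.03-fold the lowest value of its group, and the difference in means, 754-fold, was 410-fold without it. By the worth of 1 read estimated from short RNA genes, the Foxo1dd values of Spink1 amount to about 17.2, 3.4 and 0 reads, so its fold has little behind its denominator and reached 2915-fold without Foxo1dd 1.

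Prss28, Prss29, Klk1 and Foxa2, also gland markers, were likewise highest in Foxo1ff 3. In Foxo1ff samples Foxa2 had 0.643, 0.83 and 1.357 FPKM, and Klk1 had 0.96, 1.376 and 1.489 FPKM. Within Foxo1ff, Sox9 was highest there too, at 3.965 FPKM, while Lif was highest in Foxo1ff 2. The gland serine protease Prss29 had 0.614, 0 and 0.219 FPKM in Foxo1dd samples, against 2.96, 1.69 and 17.6 FPKM in Foxo1ff samples. Its relative Prss28 had 0, 0 and 0.198 FPKM in Foxo1dd samples, against 3.84, 0.852 and 12.2 FPKM in Foxo1ff samples. Both were called lower (limma adjusted p = 0.0122 and 0.00954), calls lost without a filter on low values (adjusted p = 0.141 and 0.121), and both were named after their values had been seen. The 9 gland markers other than Spink1 summed to 7.26 to 27.9 FPKM in Foxo1dd and 5.52 to 36.9 FPKM in Foxo1ff samples, so the ranges overlapped. Markers within that sum went opposite ways. Sox9 had a mean of 15.1 FPKM in Foxo1dd and 1.90 FPKM in Foxo1ff and was called higher (limma adjusted p = 0.00271, up to 0.0657 under the alternatives), as was Lif at 3.02 and 0.269 FPKM (0.0188, up to 0.157). Without Sox9 the other 8 summed to 0.972 to 7.05 FPKM in Foxo1dd and 5.14 to 32.9 FPKM in Foxo1ff samples. Foxa2, which defines gland cells, had a mean of 0.644 FPKM in Foxo1dd and 0.943 FPKM in Foxo1ff, and Ttr was at 0 in all samples. In bulk tissue, fewer cells of a type and less RNA per cell cannot be told apart, and the part of gland cells in the Spink1 difference was not tested. Of the 12 pancreatic acinar markers other than Rnase1 and Spink1, 7 were at 0 in every sample and the sum was 0.489 to 1.74 FPKM in Foxo1dd and 1.05 to 1.77 FPKM in Foxo1ff samples.

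**Figure D1:**
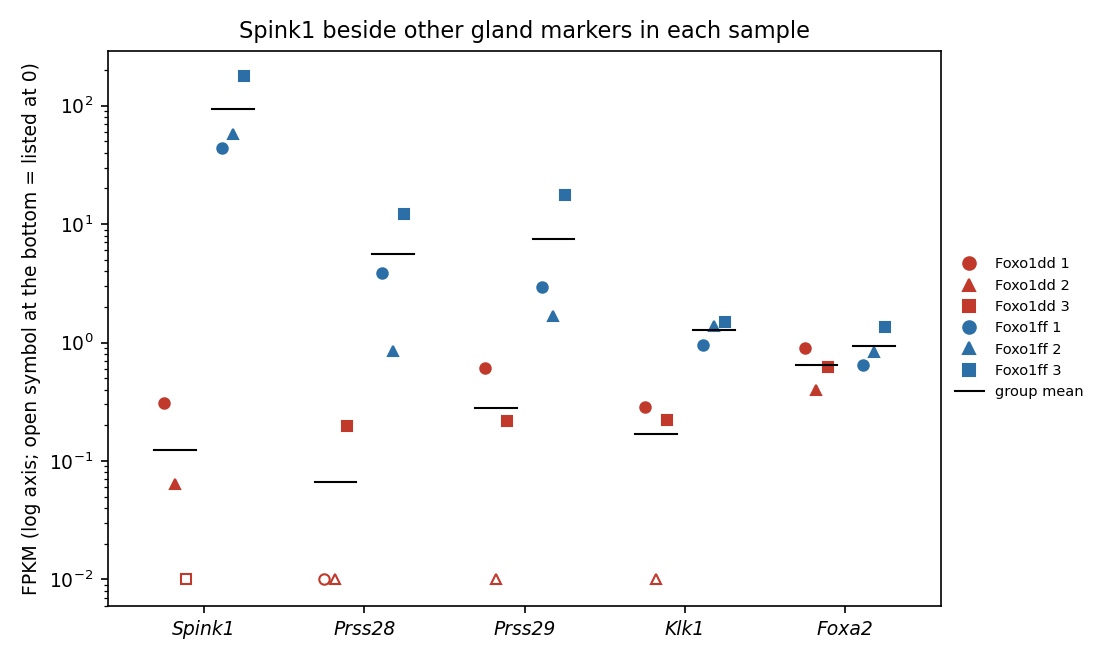
FPKM (log axis) of Spink1 and 4 other gland markers in the 3 Foxo1dd (red) and 3 Foxo1ff (blue) samples, with group means as black lines and values listed at 0 as open symbols at the bottom. Foxo1ff 3 (square) is the highest sample for Spink1, at 178.4 FPKM, and also for Prss28, Prss29, Klk1 and Foxa2. The Foxa2 values of the groups overlap. Not drawn are the gland markers Sox9 and Lif, which were called higher in Foxo1dd, and Cxcl15, Wfdc3 and Ttr.

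Pinlyp encodes a secreted protein of the Ly6 and uPAR domain family that is named as an inhibitor of phospholipase A2. It had 4.67, 2.48 and 2.71 FPKM in Foxo1dd samples, against 328.5, 429.4 and 448.3 FPKM in Foxo1ff samples. Together with Gabrp it varied least within Foxo1ff among the secreted and surface genes, with a coefficient of variation of 16.0% for Pinlyp and 7.21% for Gabrp. Its mean was 122-fold lower in Foxo1dd. The gene lies on chromosome 7 (24541658 to 24546118, minus strand).

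Msln encodes mesothelin, a glycoprotein tethered to the cell surface by a lipid anchor and a known marker of mesothelium. It had 0.090, 0 and 0.043 FPKM in Foxo1dd samples, against 27.1, 38.8 and 30.9 FPKM in Foxo1ff samples. This is the lowest level of the 10 genes in both groups, about 21.2, 0 and 11.2 reads in the Foxo1dd samples. The fold of 727 ran from 485 to 1499 when any sample was left out, the highest without Foxo1dd 1. The gene (chromosome 17, 25748613 to 25754378, minus strand) has 15 exon blocks.

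Mesothelial cells could add Msln RNA to a captured strip. Of the other 9 mesothelial markers, Upk1b, Lrrn4, Gpm6a and Bnc1 were at 0 in all 6 samples. Wt1 was above 0 in all 6, with a mean of 0.316 FPKM in Foxo1dd and 0.364 FPKM in Foxo1ff. Upk3b had a mean of 0.583 FPKM in Foxo1dd and 1.27 FPKM in Foxo1ff. The 9 summed to 4.57 to 12.8 FPKM in Foxo1dd and 14.3 to 26.2 FPKM in Foxo1ff samples. Most of the Foxo1ff sum was Pkhd1l1, with a mean of 1.07 FPKM in Foxo1dd and 19.7 FPKM in Foxo1ff. Most of the Foxo1dd sum was Krt5, a basal keratin, with a mean of 5.06 FPKM in Foxo1dd and 0.231 FPKM in Foxo1ff, and Krt14 had 1.64 and 0.119 FPKM. Without Pkhd1l1 the remaining 8 summed to 4.01 to 11.1 FPKM in Foxo1dd and 0.648 to 3.279 FPKM in Foxo1ff samples, the opposite direction. The part of mesothelial cells in the Msln difference was not tested. The mesothelin relatives Mslnl, Otoa and Strc stayed below the minimum, with means of at most 0.161 FPKM.

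Gabrp encodes the pi subunit of the GABA-A receptor, a chloride channel opened by GABA, and is known for its level in the uterus. It had 0.901, 1.38 and 2.61 FPKM in Foxo1dd samples, against 198.9, 223.6 and 196.8 FPKM in Foxo1ff samples. The Foxo1ff values lay within 1.14-fold of each other, the tightest of the 10 genes, and the mean was 127-fold lower in Foxo1dd. GABA-A receptors are assembled from several kinds of subunit. Of the 18 other subunits, 0 reached the minimum, 9 were at 0 in every sample, and the highest single value was 0.482 FPKM, of Gabre in Foxo1ff 1. The gene lies on chromosome 11 (33550781 to 33578959, minus strand).

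Ttpa encodes the alpha-tocopherol transfer protein, which loads vitamin E for export from liver cells and without which mouse placentas fail. It had 2.76, 3.82 and 0.905 FPKM in Foxo1dd samples, against 328.9, 348.2 and 436.4 FPKM in Foxo1ff samples. The groups did not overlap, and the mean was 149-fold lower in Foxo1dd. The gene lies on chromosome 4 (20007938 to 20030785, plus strand).

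**Figure D2:**
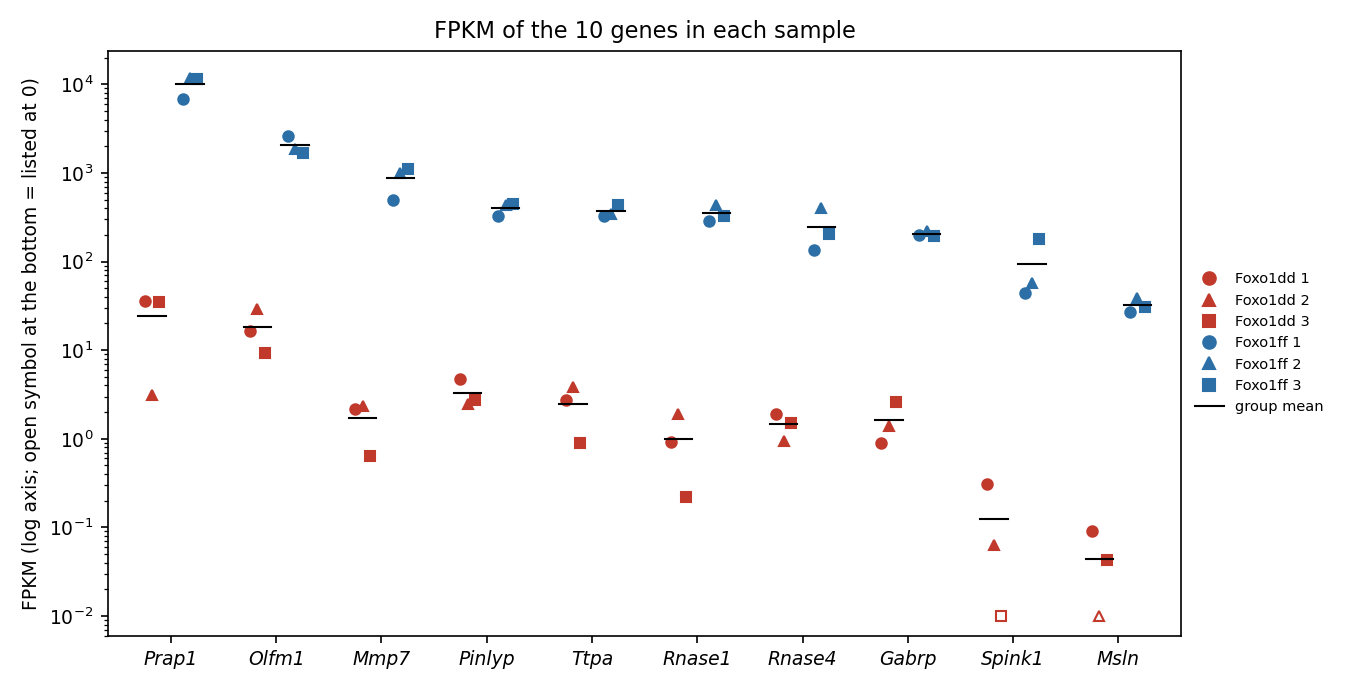
FPKM (log axis) of the 10 genes in each of the 3 Foxo1dd (red) and 3 Foxo1ff (blue) samples, ordered by their Foxo1ff mean, with group means as black lines and values listed at 0 as open symbols at the bottom. Every Foxo1dd value lies at least 58.5-fold below every Foxo1ff value of its gene, which is how the genes were picked.

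Side by side, the levels in Foxo1ff ran from 10074 ± 2866 FPKM for Prap1 through 2044 ± 475 for Olfm1 and 876 ± 332 for Mmp7 to 93.3 ± 74.0 for Spink1 and 32.2 ± 5.98 for Msln (SD, n = 3 each). The ranges of these 5 genes did not touch, while those of Pinlyp, Ttpa and Rnase1 overlapped, with means of 402, 371 and 352 FPKM. In Foxo1dd the order was led by Prap1 at 24.4 ± 18.4 and Olfm1 at 18.2 ± 9.88 FPKM, whose ranges overlapped. The 6 genes Pinlyp, Ttpa, Mmp7, Gabrp, Rnase4 and Rnase1 followed with means of 3.29 to 1.01 FPKM, and Spink1 and Msln came last at 0.124 and 0.0443 FPKM. Ranks ran from 3735 for Prap1 to 14835 for Msln in Foxo1dd, and from 4 for Prap1 to 3213 for Msln in Foxo1ff. The 10 genes made up 0.00813% to 0.0118% of summed FPKM in Foxo1dd samples and 1.83% to 2.5% in Foxo1ff samples. In Foxo1ff, Prap1 alone was 60.4% to 71.4% of that, and the share of the other 9 genes was 0.713% to 0.723% in every sample.

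**Figure D3:**
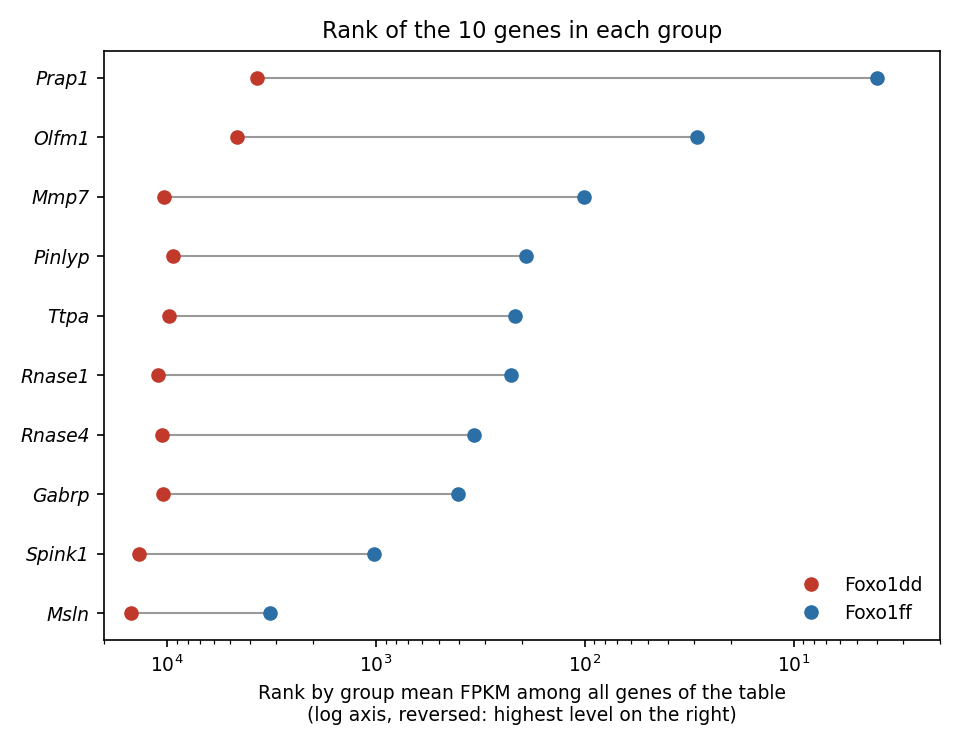
Rank of each of the 10 genes by group mean FPKM among all 24964 genes (log axis, highest level on the right), in Foxo1dd (red) and Foxo1ff (blue). The Foxo1ff ranks run from 4 to 3213 and the Foxo1dd ranks from 3735 to 14835.

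Differences were also computed as log2(FPKM + 1), Foxo1dd minus Foxo1ff, over the 11427 genes whose mean reached 1 FPKM. All 10 genes passed this minimum, a mean over the 6 samples. Mmp7, Gabrp, Rnase4, Rnase1, Spink1 and Msln did so only through their Foxo1ff values. Their Foxo1dd values alone would not have brought that mean to 1 FPKM. Of these, Spink1 and Msln were also below 1 FPKM by the mean of Foxo1dd. The median of the 10 genes was -6.70, against -0.15 over all tested genes. They ran from -9.12 ± 0.73 for Prap1 to -4.98 ± 0.17 for Msln (SE, n = 3 each), and 9 of them were among the 14 largest falls. In all 10 the Foxo1dd values lay below the Foxo1ff range, as they did for 39% of all tested genes, and nothing is read from this count, since the genes were picked on this contrast. As background, at an adjusted p under 0.05 the fit called 34.2% of all tested genes lower and 22.2% higher in Foxo1dd, 56.4% in either direction. Just inside the list, Msln was 32nd in the order of falls, and the gene after it was Ndrg1 at -4.97 with 47.3 and 1432 FPKM in Foxo1dd and Foxo1ff. Of the 22 genes ahead of Msln that are not described here, Depp1, Igfbp3, Gpx3 and Atp6v0d2 had falls larger than that of Olfm1.

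The non-member gene closest to each of the 10 by Euclidean distance of log2(FPKM + 1) over the 6 samples was Igfbp3 for Prap1 (distance 3.53), Nmb for Olfm1 (1.89), and Gpx3, a secreted glutathione peroxidase, for Mmp7 (1.33), Pinlyp (2.03) and Ttpa (2.49). It was Kank3 for Gabrp (1.38), Rnase4 (1.82) and Rnase1 (2.76). Msln was closest to Stra6l (0.67) and Spink1 to Agtr2, an angiotensin receptor (1.63). The distance is a description of both level and difference.

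Genes related to the 10 by family or function went both ways. The lists were drawn up by family and function but with earlier results of these data known, and the list of other secreted and surface proteins holds Igfbp3 and Gpx3, which are among the largest falls. Of 73 tested, 25 were higher and 32 lower in Foxo1dd, which is read against 22.2% higher and 34.2% lower among all tested genes, and their median log2 change was -0.32. Rescaling every sample to the same summed FPKM gave 3260 higher and 2918 lower genes among all tested, in place of 2533 and 3912, and 27 higher and 30 lower relatives.

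Relatives of Pinlyp with Ly6 or uPAR domains numbered 12 tested, of which 5 were higher and 5 lower. Plaur, the urokinase receptor, which lies 65.7 kb from Pinlyp, had 0.430, 0.233 and 0.640 FPKM in Foxo1dd samples, against 32.8, 31.5 and 30.4 FPKM in Foxo1ff samples (log2 change -4.51 ± 0.16, limma adjusted p = 1.88e-07). Ly6a, known as Sca-1, and Lypd1 fell by 3.62 and 2.86 on that scale, and Ly6g6e rose by 2.33, the last chosen after its values were seen. Several Ly6 genes are near-identical and can exchange reads.

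Among 8 tested metalloproteinases and tissue inhibitors of them (TIMPs), 4 were higher and 2 lower. Mmp11 fell by 2.36 ± 0.37 (limma adjusted p = 0.000542) and Timp2 fell by 1.16 ± 0.15 (0.000209), while Timp1 rose by 1.64 ± 0.22 (0.000238) on the log2 scale (SE). Timp3, named after its values were seen, had a mean of 15.8 FPKM in Foxo1dd and 2.69 FPKM in Foxo1ff. Mmp3 and Mmp9 were at 0 in every sample.

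Of 7 tested protease inhibitors, of the Kazal family of Spink1 or of the WAP and Kunitz families, 2 were higher and 4 lower. The higher ones, named after their values were seen, were Wfdc1 and Spink8, the only tested Kazal relative. Spink8 had means of 1.95 FPKM in Foxo1dd and 0.288 FPKM in Foxo1ff (log2 change 1.17 ± 0.23, limma adjusted p = 0.00212). Slpi, an inhibitor of leukocyte elastase, had 0.237, 0.031 and 0.040 FPKM in Foxo1dd samples, against 8.08, 26.7 and 16.2 FPKM in Foxo1ff samples (log2 change -3.89 ± 0.35, limma adjusted p = 2.16e-05). Wfdc15b fell by 2.23 and Spint1, a Kunitz-type inhibitor of membrane serine proteases, fell by 2.07. Wfdc2, the most abundant of them, had means of 3412 FPKM in Foxo1dd and 3427 FPKM in Foxo1ff and was not called (adjusted p = 0.973).

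Of 7 tested genes of vitamin E handling and related lipid transfer, 1 was higher and 3 lower. Scarb1, a lipoprotein receptor that takes up vitamin E, had 3.42, 3.79 and 3.97 FPKM in Foxo1dd samples, against 57.7, 69.0 and 59.1 FPKM in Foxo1ff samples (log2 change -3.73 ± 0.13, limma adjusted p = 1.88e-07). Abca1, a lipid exporter, fell by 1.70 and Ptpn9 by 0.99, while Ttpal, the closest relative by name, was not called (adjusted p = 0.766).

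Of 3 tested olfactomedin-domain genes, Olfm2 rose by 1.42 and Adgrl2, a latrophilin receptor, fell by 1.58 (limma adjusted p = 0.000321 and 2.76e-05). Of 4 tested genes of GABA signalling or named for its receptor, Gabarapl1 and Gabbr1 fell by 2.86 and 1.63 and Gabarap rose by 0.53. Among 30 other secreted or surface proteins of uterine epithelium, 11 were higher and 14 lower, with a median of -0.20 (12 and 12 after rescaling to the same summed FPKM). They included Igfbp3 at -8.33, Gpx3 at -7.86 and the surfactant protein Sftpd at -3.55, and on the other side the adhesion protein Ceacam1 at 4.09, the last named after its values were seen.

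**Figure D4:**
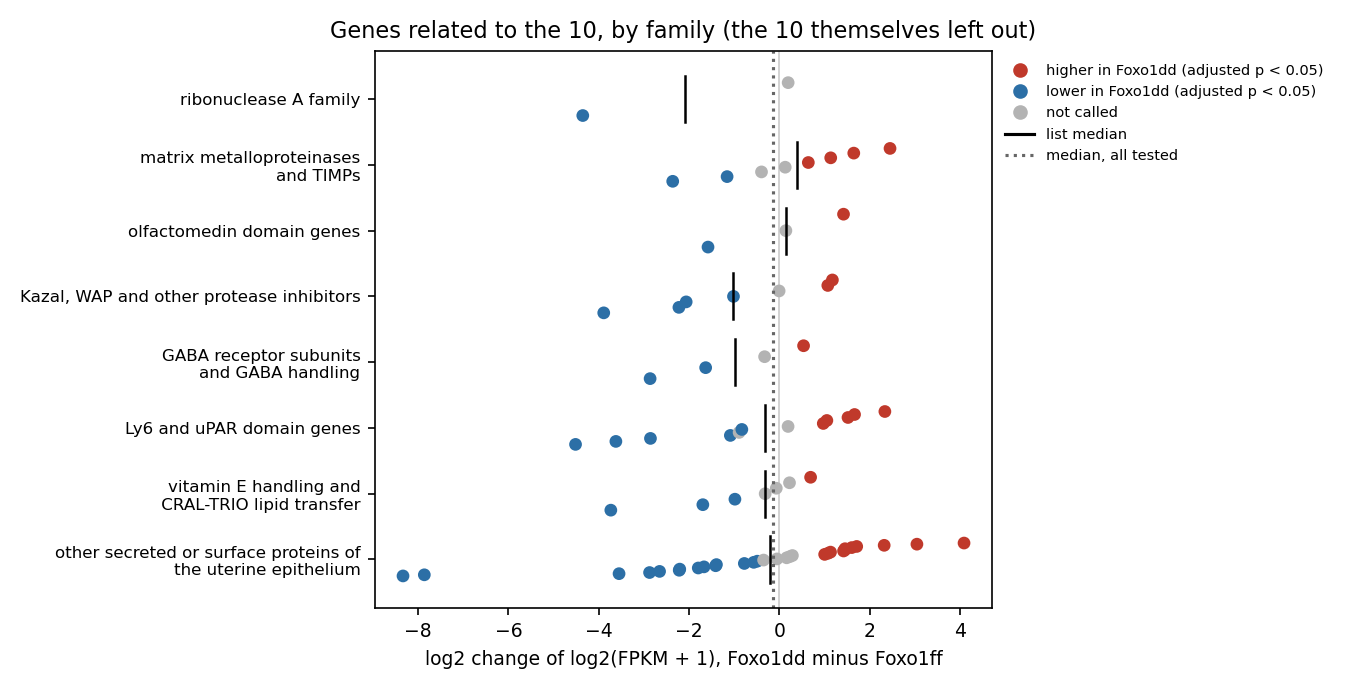
Log2 change (Foxo1dd minus Foxo1ff, log2 of FPKM + 1) of each tested relative of the 10 genes by list, coloured by call, with the list median as a black bar and the median of all tested genes (-0.15) as a dotted line. Higher and lower genes occur together in 7 of the 8 lists with tested genes, the ribonuclease list having 1 lower and 0 higher (Rnh1 was called higher after rescaling to the same summed FPKM or by quantiles).

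The 3 nearest tested genes on each side of each of the 10 were taken as chromosomal neighbours, 54 genes in all, leaving out the 10 themselves. Of these 12 were higher and 26 lower, with a median log2 change of -0.32, beside the 22.2% and 34.2% of all tested genes. Ttpa lay between a pair of genes that were also called lower. Atp6v0d2, a subunit of the vacuolar proton pump, 85.3 kb away, had 7.25, 10.3 and 4.54 FPKM in Foxo1dd samples, against 1542, 1455 and 1243 FPKM in Foxo1ff samples (log2 change -7.46 ± 0.23, limma adjusted p = 1.21e-07). Ggh, gamma-glutamyl hydrolase, 11.3 kb away, had 58.8, 105.3 and 32.8 FPKM in Foxo1dd samples, against 2377, 5461 and 4139 FPKM in Foxo1ff samples (log2 change -5.98 ± 0.41, adjusted p = 4.75e-06). With Ttpa they span 189.9 kb of chromosome 4, from 19876841 to 20066750. The next tested genes were Wwp1, 299 kb from Ttpa on the left, and Ccnc, 1697 kb from it on the right, at 0.41 and -0.31. Wwp1 was called higher, a call lost under 5 alternatives, and Ccnc was not called.

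All 6 neighbours of Prap1 were lower. Fuom, whose exons overlap those of Prap1, had 15.9, 9.53 and 15.3 FPKM in Foxo1dd samples, against 73.4, 72.4 and 76.0 FPKM in Foxo1ff samples. Paox, a polyamine oxidase 18.6 kb away, had 8.82, 2.48 and 10.9 FPKM in Foxo1dd samples, against 116.6, 100.9 and 104.6 FPKM in Foxo1ff samples. Their log2 changes were -2.39 and -3.87, and the other 4 (Adam8, Tubgcp2, Zfp511 and Echs1) ran from -2.00 to -0.77.

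Around Pinlyp, the DNA repair gene Xrcc1, 0.171 kb away, fell by 2.23, and Irgq, 3.06 kb away on the other side, fell by 1.44. Farther out, Ethe1 fell by 2.60, while Cadm4 rose by 1.42 and Zfp428 by 0.45, a call lost for Zfp428 under 2 alternatives. Beside the ribonuclease genes, Pnp fell by 2.68. On the other side, past Mettl17 and 746 kb from Rnase1, the zinc transporter Slc39a2 had a mean of 74.9 FPKM in Foxo1dd and 0.252 FPKM in Foxo1ff (log2 change 5.82). Near Gabrp, Fgf18, 403 kb away, rose by 4.69, while Ranbp17, Npm1 and Spdl1 fell by 1.18 to 1.59. Of 6 neighbours each, 2 were higher and 0 lower for Spink1, 0 higher and 3 lower for Olfm1, and 1 higher and 3 lower for Msln. The nearest tested neighbours of Mmp7 toward Pgr, Tmem123 and Birc2, rose by 0.43 and 0.71, and Birc3 fell by 0.71. The call of Tmem123 was lost under 4 alternatives, with adjusted p of up to 0.0675.

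**Figure D5:**
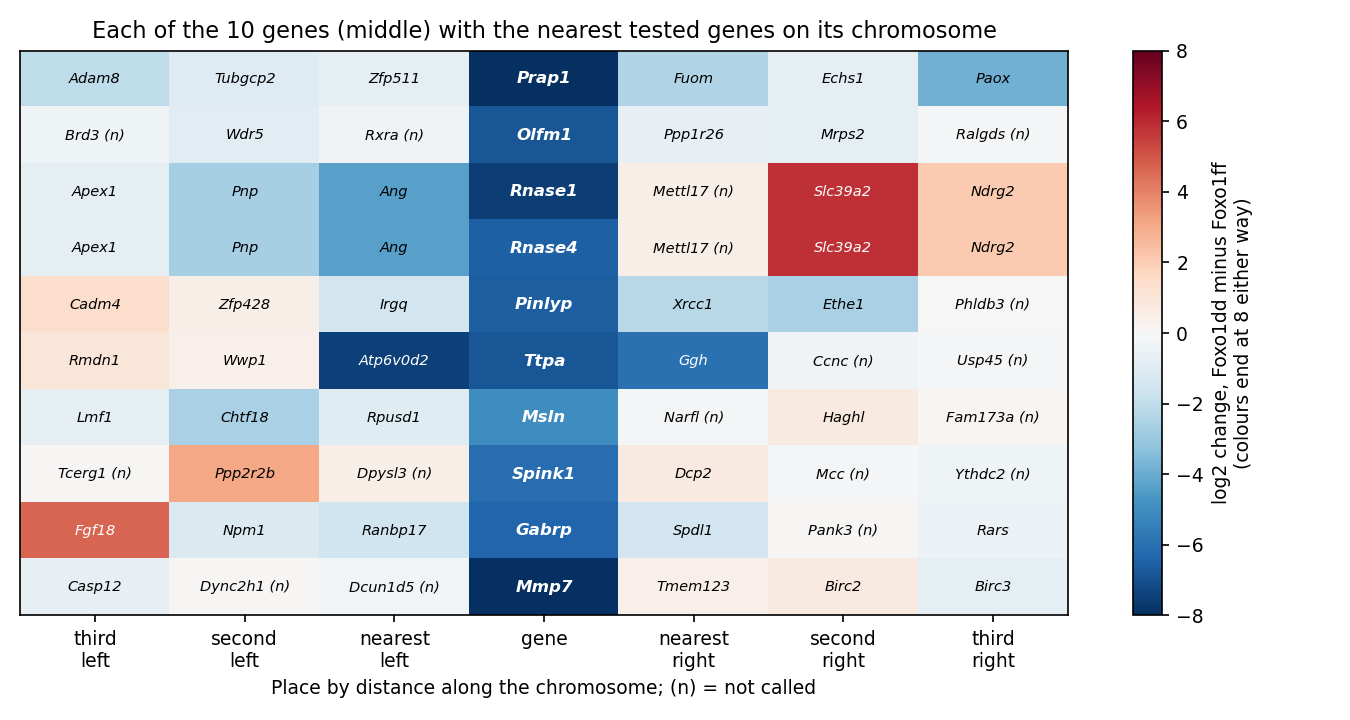
Log2 change (Foxo1dd minus Foxo1ff, colour scale) of each of the 10 genes in the middle column and of the 3 nearest tested genes on each side, ordered by distance, with (n) for genes not called. The row of Ttpa has the darkest neighbours, Atp6v0d2 at -7.46 and Ggh at -5.98, and Slc39a2 at 5.82 is the largest rise.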

How the data were processed

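RNA-seq of laser-captured mouse uterine luminal epithelium was available for 3 Foxo1dd and 3 Foxo1ff samples, grouped by their titles. The authors deposited 1 FPKM value per gene and sample. Per the submitters' processing notes, mm10, STAR 2.5.2b, featureCounts 1.5.0-p1 (Subread), edgeR 3.28.0 and DESeq2 1.12.4 were used, in roles and an order that the notes leave out. For annotation, gene lengths, strand setting and scaling, the answer is not given in the sources used here. Reads of genes that overlap on opposite strands may therefore be mixed, as may those of near-identical genes.

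FPKM values are not counts, so log2(FPKM + 1) was fitted with limma 3.58.1 in R 4.3.3 (lmFit, eBayes with a trend, genotype as the only term) for the 11427 genes whose mean reached 1 FPKM, 13537 being left out. Calls are Benjamini-Hochberg adjusted p under 0.05 over all tested genes. The scale understates differences of low genes. The fit was tested on simulated data. Folds are ratios of group mean FPKM. The 10 genes, the related lists and the marker lists were chosen with earlier results of these data known. Text names, beside the 10 genes, up to 3 called genes of each list with the smallest p, called neighbours, the nearest gene in profile and genes next in the order of falls.

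Depth was estimated from miRNA and snoRNA genes with RefSeq lengths, as the largest step that made 80% or more of the values under 12 reads whole to within 0.05 of a read, refined to the most whole values nearby. The whole share was 88.5% to 100% over 26 (Foxo1dd 2) to 132 genes, and 1 read was worth 0.0102 to 0.0136 FPKM for 1 kb. Read equivalents use GENCODE M21 exon lengths and are approximate, and positions and overlaps come from that annotation of GRCm38. Promoter windows are from RefSeq, GRCm38.p6.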

Additional observations from a re-analysis of the deposited data

How the results depend on the processing

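All alternatives were planned. They were pseudocounts, filters, scalings, eBayes without a trend, the replicate block and leaving out each sample. The log2 change of each of the 10 genes kept its sign. Nothing is read from this, since the genes were picked on this contrast and their groups lay far apart. Of 150 such values, 140 moved by less than 1 SD between replicates. The other 10 came with a smaller pseudocount, which by construction enlarges the falls of genes near 0. With a pseudocount of 0.1 the median of the 10 was -7.60 in place of -6.70, and it ran from -6.82 to -6.52 when a sample was left out. Counts of higher and lower genes, related genes and neighbours stayed within 1.5 times in every alternative. Rescaling to the same summed FPKM moved the median of all tested genes by over 0.1, to 0.04 (median-of-ratios and quantile scaling gave -0.03 and -0.01), and gave 3260 higher and 2918 lower genes in place of 2533 and 3912. Of 120 called related, marker or neighbour genes, 30 lost the call under at least 1 alternative and 0 changed sign.

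The bioreplicate numbers share no stated source. Deviations of same-numbered samples correlated at 0.123, 0.107 and -0.133, so they were not treated as pairs, and not every sample was closest to its own number. The replicate block gave 2417 higher and 3724 lower genes. Depth limits Spink1 and Msln, whose Foxo1dd values rest on 0 to 21.2 read equivalents. It also limits Rnase1 in Foxo1dd 3, at 18.3 read equivalents, against 69.3 and 138.5 in Foxo1dd 1 and Foxo1dd 2.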

Other observations

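Within Foxo1dd, 4 of the 10 genes shared an order of samples, which was picked out after the values were seen. Another 5 of the 10 were highest in Foxo1dd 1, and 1 was highest in Foxo1dd 3. Olfm1, Rnase1, Ttpa and Mmp7 were highest in Foxo1dd 2 and lowest in Foxo1dd 3, as were the neighbours of Ttpa, Atp6v0d2 and Ggh. Prap1 was lowest in Foxo1dd 2, at 3.13 FPKM, and so were its neighbours Fuom at 9.53 FPKM and Paox at 2.48 FPKM. Its neighbour Adam8 was highest in Foxo1dd 2, at 0.503 FPKM. Within Foxo1ff, 8 of the 10 were lowest in Foxo1ff 1. For 9 of the 10 the residual SD of log2(FPKM + 1) was above the median of all tested genes, 0.20, and that of Prap1, 1.32, was the highest of the 10.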
